A study of Mus musculus with 34 samples.

Results

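The named ERVK families are the entries for intracisternal A particles (IAP), ETn and their relatives among mouse endogenous retroviruses, taken from tables of H3K9me2 signal over repeat families. Members were chosen by name alone, as every entry whose name starts with IAP, ERVB, MMERVK, MMETn, ETnERV, BGLII, MYSERV or MurERV. This gave 67 of the 1482 families in gonadal soma and the same 67 of the 1456 families in primordial germ cells (PGCs). Of these, 30 carry the suffix -int and stand for the internal part of an element, and 37 without it are taken as long terminal repeats (LTRs). They comprise 25 IAP, 4 ETn, 5 MMERVK, 21 ERVB, 7 BGLII, 3 MYSERV and 2 MurERV entries. The tables give no repeat class, so membership of the ERVK class rests on the names.

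The signal is that of H3K9me2, a dimethyl mark on histone H3 found in repressed chromatin, profiled by CUT&RUN, in which an antibody brings a nuclease to the mark and the released DNA is sequenced. All embryos were female, at embryonic day 13.5, on a C57BL/6 background and Gulo-/-, so they could not make vitamin C and depended on the diet, which either supplied vitamin C or had it withdrawn over the early part of gestation. Each library came from 1000 sorted cells, either Oct4GFP-positive PGCs or the Oct4GFP-negative remainder of the gonad, which mixes its somatic cell types. The H3K9me2 libraries numbered 4 supplied and 3 withdrawn in soma and 5 supplied and 5 withdrawn in PGCs. The labels call the libraries biological replicates and do not say whether embryos or litters were pooled. The sort could not be checked against marker genes, because the tables hold no expression values.

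An endogenous retrovirus is a retroviral genome fixed in the germ line. Its LTRs lie at both ends and hold the promoter, while the internal part encodes the Gag, protease and Pol proteins. Recombination between the LTRs of a copy removes the internal part and leaves a solitary LTR. IAP and ETn elements are among the most active retrotransposons of the mouse, and IAP copies are known to keep much of their DNA methylation in PGCs while the rest of the genome loses it. H3K9me2 is written mainly by the enzymes G9a and GLP. The H3K9 demethylases of the Jumonji type and the TET enzymes that oxidise methylated DNA both use vitamin C as a cofactor.

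The values are those of the authors' deposited tables. These hold a log2 fold change, an average log2 of scaled counts (CPM) and limma's statistics for each family. The scaling is not described, and the summed soma levels given below are too high for scaling to library size alone, if no read is counted for several families. No column belongs to a single library, so levels are given per group, as implied by the average and the fold change. Fold changes are withdrawn over supplied. In soma this direction was read from the tables, and in PGCs, with equal groups, it was assumed to be the same. The tables name no antibody and were taken as those of H3K9me2. The lowest average in each table sets a minimum for the mean scaled depth of a library, 780858 reads for soma and 423480 for PGCs. At this depth a member had between 1.59 (ERVB4_1-LTR_MM) and 3496 reads (IAPEz-int) per soma library, with a median of 74.1, and between 0.669 and 703 in PGCs, with a median of 23.0. At this minimum 4 members in soma and 17 in PGCs had fewer than 10 reads. No source used here tells how reads that match several families were shared out, so values of near-identical entries, such as the IAPLTR1 and IAPLTR2 types, may not be separate.

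In soma, the scaled H3K9me2 signal over nearly all of these retroviruses was higher without vitamin C. Of the 67 members, 66 passed an adjusted p of 0.05 as higher and 0 as lower in the authors' deposited table by limma, where 77% of all 1482 families rose and 0.405% fell. The median member stood at a log2 fold change of 1.45, or 2.73-fold, against 1.18, or 2.27-fold, for all families. Members ranged from 0.67, or 1.60-fold, for IAP1-MM_I-int to 1.83, or 3.56-fold, for IAPLTR1a_Mm. Only ERVB4_1-LTR_MM, the member with the fewest reads, did not pass, at 0.84 ± 0.57 (log2, SE; adjusted p = 0.170 by limma) in the authors' deposited table. When p-values were based on only the 5 degrees of freedom left by the 7 libraries, 64 members rose, where 67.4% of all families did, and the calls of IAP1-MM_I-int and BGLII_C ended (adjusted p = 0.0765 and 0.0564).

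**Figure D1:**
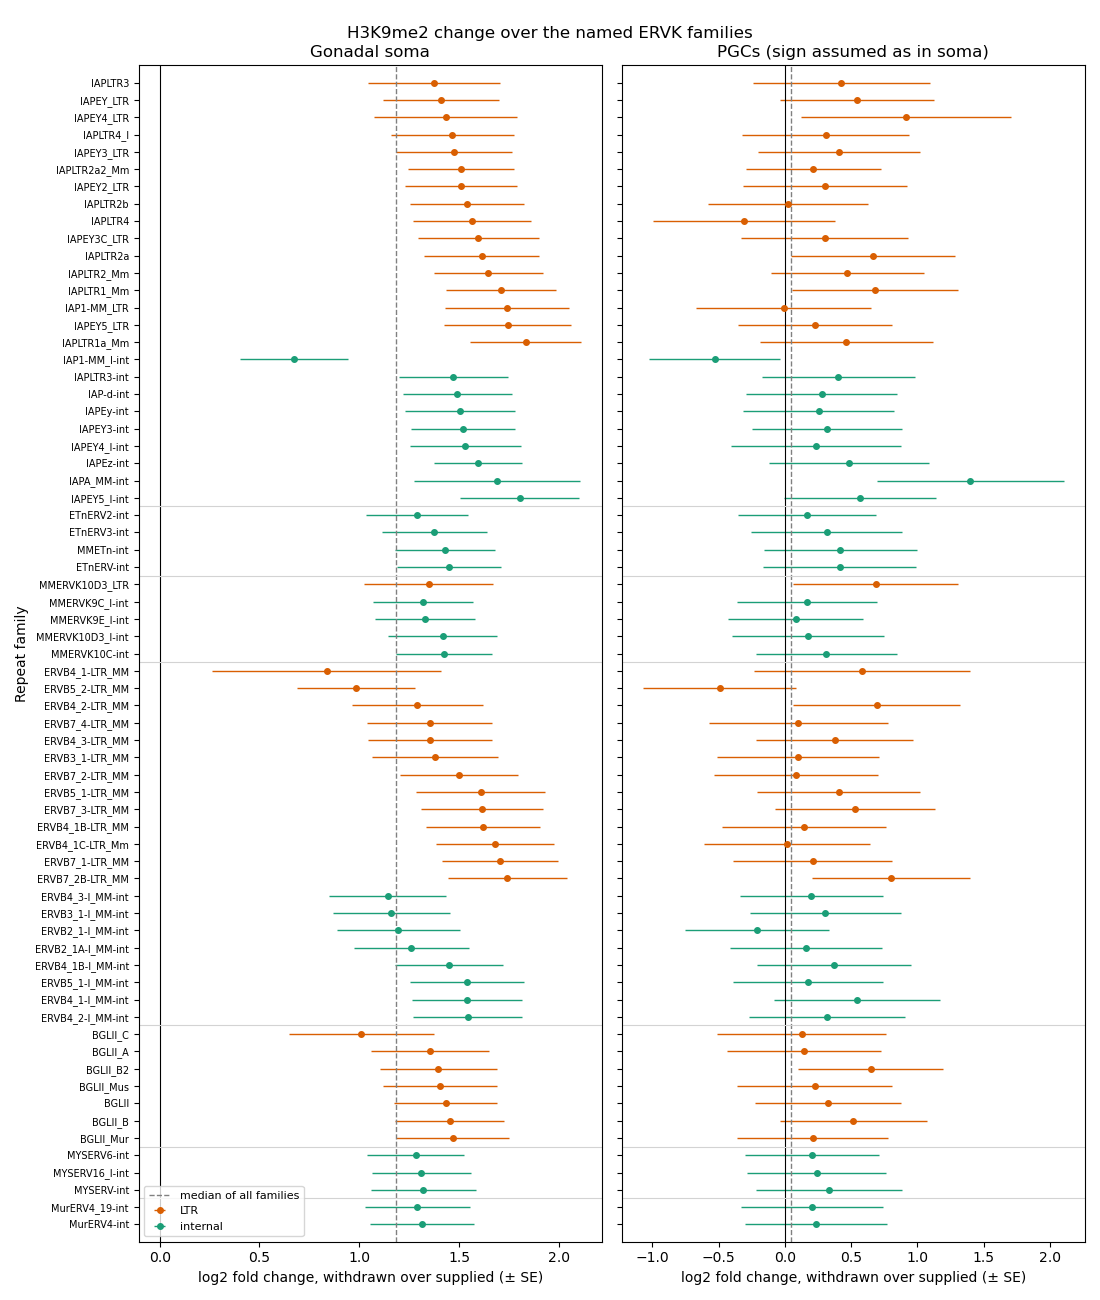
Each row is a repeat family and each point its log2 fold change, withdrawn over supplied, with bars of 1 SE, in soma (left) and PGCs (right), with the dashed line at the median of all families. All 67 members lie above 0 in soma and 61 lie above the dashed line, while in PGCs 62 lie above 0 with bars that mostly reach it.

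Among IAP entries the internal part IAPEz-int carried the most signal. Of the 1482 soma families it ranked 4 by p but 101 by log2 fold change, with the smallest SE of the members. Its implied level was 2788 CPM in the supplied group and 8418 CPM in the withdrawn group, a rise of 1.59 ± 0.22 (log2, SE; adjusted p = 1.52e-10 by limma) in the authors' deposited table. The LTRs that usually flank IAPEz rose by 1.71 ± 0.28 for IAPLTR1_Mm, 1.83 ± 0.28 for IAPLTR1a_Mm and 1.65 ± 0.27 for IAPLTR2_Mm in the authors' deposited table (adjusted p = 2.39e-08, 4.61e-09 and 5.46e-08 by limma). IAPLTR1a_Mm went from 84.4 to 301 CPM, IAPLTR1_Mm from 98.6 to 323 CPM and IAPLTR2_Mm from 114 to 356 CPM. The 3 LTRs thus had somewhat higher log2 fold changes than IAPEz-int, differences for which no error was available.

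The IAPEY entries, another subtype of IAP, rose by 1.41 (IAPEY_LTR) to 1.80 (IAPEY5_I-int) in the authors' deposited table. IAPEY5_I-int, at 24.2 CPM supplied and 84.6 CPM withdrawn, rose by 1.80 ± 0.30 (adjusted p = 5.31e-08 by limma) in the authors' deposited table. Its fold change was the highest of the internal parts. IAP1-MM_I-int was the exception among IAPs, with 196 CPM supplied and 313 CPM withdrawn, a rise of 0.67 ± 0.27 (adjusted p = 0.0176 by limma) in the authors' deposited table that ended at a threshold of 0.01. All other 24 IAP entries lay above the median of all families. IAPLTR3 was the lowest of the IAP LTRs, at 1.38 ± 0.33 in the authors' deposited table.

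The ETn entries are all internal parts, MMETn-int standing for the non-coding ETn element and ETnERV-int for its coding relative, also called MusD. MMETn-int rose from 395 to 1065 CPM, by 1.43 ± 0.25 (adjusted p = 2.01e-07 by limma), and ETnERV-int from 254 to 694 CPM, by 1.45 ± 0.26 (adjusted p = 3.00e-07 by limma), in the authors' deposited table. ETnERV3-int rose by 1.38 and ETnERV2-int by 1.29 in the authors' deposited table. The 4 ETn entries thus spanned 1.29 to 1.45. Among the MMERVK entries MMERVK10C-int, a betaretrovirus-like element, rose from 728 to 1956 CPM, by 1.43 ± 0.24 (adjusted p = 8.71e-08 by limma), in the authors' deposited table. The other MMERVK entries rose by 1.32 (MMERVK9C_I-int) to 1.42 (MMERVK10D3_I-int) in the authors' deposited table.

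ERVB entries had the widest spread among LTRs. ERVB7_2B-LTR_MM rose from 27.3 to 91.3 CPM, by 1.74 ± 0.30 (adjusted p = 1.08e-07 by limma), the highest of the group, while ERVB5_2-LTR_MM rose from 37.5 to 74.2 CPM, by 0.98 ± 0.30 (adjusted p = 0.00148 by limma), in the authors' deposited table. The 8 ERVB internal parts rose by 1.14 (ERVB4_3-I_MM-int) to 1.54 (ERVB4_2-I_MM-int) in the authors' deposited table. All 7 BGLII entries rose, from BGLII_C at 1.01 ± 0.36 to BGLII_Mur at 1.47 ± 0.28, in the authors' deposited table, and BGLII_C was also among the members with the fewest reads. MYSERV entries, related to the mys elements of rodents, rose by 1.28 (MYSERV6-int), 1.31 (MYSERV16_I-int) and 1.32 (MYSERV-int) in the authors' deposited table. MurERV4_19-int rose by 1.29 and MurERV4-int by 1.32 in the authors' deposited table.

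Most families rose in soma, and relative to the median of all families no member was called. After the median of 1.18 was subtracted, 61 members lay above 0 and 6 below, with 0 passing in either direction by the test on limma's standard errors, where 0% of all families passed higher and 8.77% lower. Unadjusted p-values under 0.05 were reached by 2 members, IAPLTR1a_Mm at 0.65 (adjusted p = 0.144) and IAPEY5_I-int at 0.62 (adjusted p = 0.234) above the median, on limma's standard errors. Among all families 261 reached that p, or 17.6%, of which 7 were higher and 254 lower. IAPEz-int stood 0.41 above it (adjusted p = 0.321 on limma's standard errors). The 6 members below were IAP1-MM_I-int at -0.51, ERVB4_1-LTR_MM at -0.35, ERVB5_2-LTR_MM at -0.20, BGLII_C at -0.17, ERVB4_3-I_MM-int at -0.041 and ERVB3_1-I_MM-int at -0.022. Among the 67 members the log2 fold changes had an SD of 0.21 and an interquartile range of 0.22 in width.

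LTRs and internal parts rose in soma with similar medians. Of the 37 LTRs 36 rose, with a median of 1.48 and an interquartile range from 1.38 to 1.62, and of the 30 internal parts 30 rose, with a median of 1.42 and an interquartile range from 1.30 to 1.52, in the authors' deposited table. The internal median lay -0.054 from the LTR median. All entries share the same libraries, so the error of this difference was not available. Among IAPs the medians were 1.55 for 16 LTRs and 1.52 for 9 internal parts, and among ERVB entries 1.50 for 13 LTRs and 1.35 for 8 internal parts, in the authors' deposited table. Internal parts had higher averages, a median log2 CPM of 7.89 against 5.52 for LTRs, but lengths and copy numbers are not in the tables, so this is not a density. Rodent RLTR and RMER families, also chosen by name, had medians of 1.42 for 16 internal parts and 1.43 for 223 LTRs in the authors' deposited table. The ETn, MYSERV and MurERV members include no LTR entry. Whether LTRs of the members' elements stand under RLTR or RMER names was not examined, so the sets may not be separate.

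**Figure D2:**
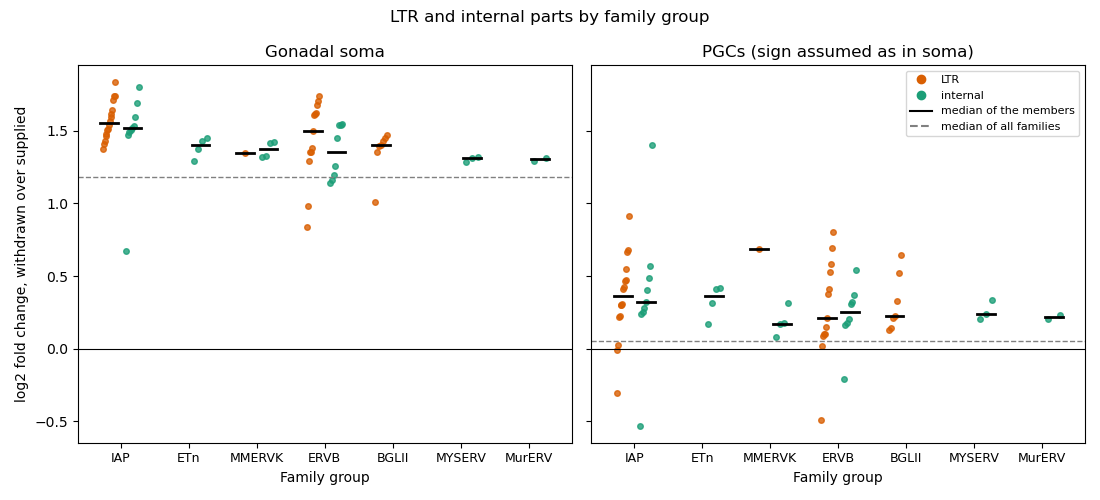
Points are log2 fold changes of single families by family group, LTR and internal parts side by side, in soma (left) and PGCs (right), with black bars at the median of each set and a dashed line at the median of all families. The black bars of LTRs and internal parts lie close together in soma, at 1.55 and 1.52 for IAP. IAP1-MM_I-int lies below the other IAP internal parts in both panels, and in PGCs IAPA_MM-int lies above them, at 1.40.

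An LTR and an -int entry with the same element name were present for 13 elements. IAPLTR4_I, counted here with the LTRs for want of the suffix, may be a further internal part, and lay -0.099 from IAPLTR4 in soma and 0.61 from it in PGCs. In soma the internal part had the higher log2 fold change in 8 and the LTR in 5, with a median difference of 0.061. For the pair IAPEY_LTR and IAPEy-int the values were 1.41 and 1.51, for IAPEY3 1.48 and 1.52, for IAPEY4 1.43 and 1.53, and for IAPEY5 1.74 and 1.80, LTR first, in the authors' deposited table. For IAPLTR3 the LTR stood at 1.38 and the internal part at 1.47, and for MMERVK10D3 at 1.35 and 1.42, in the authors' deposited table. The ERVB elements went both ways. ERVB3_1, ERVB4_1B, ERVB4_3 and ERVB5_1 had differences of -0.22, -0.17, -0.21 and -0.069, internal minus LTR, and ERVB4_2 and ERVB4_1 had 0.25 and 0.70, the last resting on the ERVB4_1 LTR with its few reads.

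IAP1-MM had the largest difference of the 13 pairs. Its LTR stood at 1.74 ± 0.31, from 16.6 to 55.4 CPM, and its internal part at 0.67 ± 0.27, from 196 to 313 CPM, in the authors' deposited table, a difference of -1.07. Both entries come from the same libraries, and without values per library the SE of the difference can only be bounded, here between 0.039 and 0.58. Against 1.96 times the largest SE possible, 0 of the 13 pairs differed by more in either cell type, and against the smallest SE possible 8 did in soma and 11 in PGCs. Whether the parts of an element differed is therefore not settled by the tables.

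**Figure D3:**
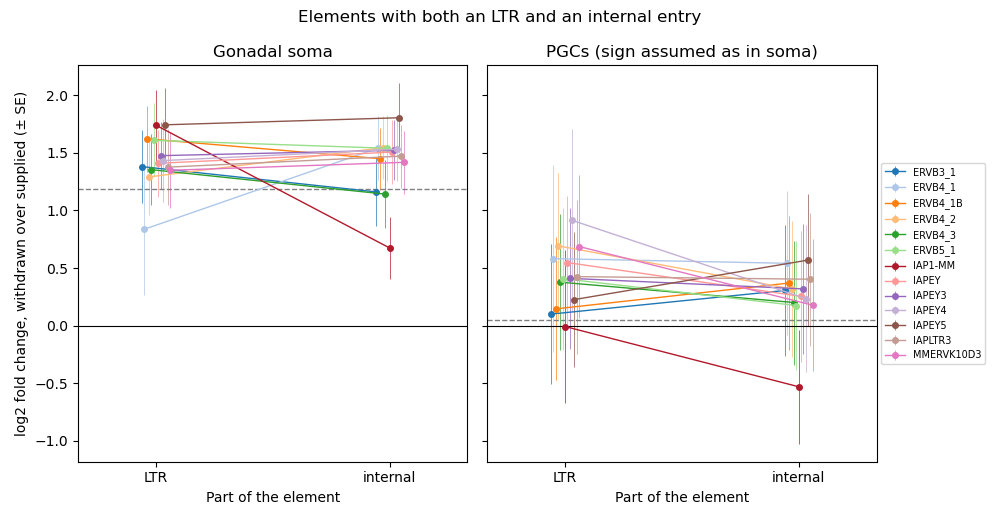
Lines join the LTR and the internal part of the 13 elements that have both, with log2 fold changes and bars of 1 SE, in soma (left) and PGCs (right). Most lines are nearly flat in soma, where IAP1-MM drops from 1.74 to 0.67. In PGCs, with the sign assumed as in soma, 10 of 13 slope downwards, most steeply IAPEY4, by -0.68. These slopes would be reversed if the PGC sign were the reverse.

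In PGCs no member passed the test. By limma, 0 of 67 members passed in either direction in the authors' deposited table, 0 had an unadjusted p under 0.05, and 0% of all 1456 families passed in either direction, with 2 at an unadjusted p under 0.05. Values above 0 were found for 62 members, with a median of 0.30 against 0.050 for all families, and 60 lay above that median. The SE of a single member had a median of 0.58, and the SD over members was 0.29. If the sign of the PGC table were the reverse, these fold changes would change sign.

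IAPEz-int stood at 1405 CPM supplied and 1963 CPM withdrawn in PGCs, a log2 fold change of 0.48 ± 0.60 with a 95% interval from -0.75 to 1.72, by the authors' deposited table. The interval therefore holds both no change and the value of 1.59 found in soma. IAPLTR1_Mm stood at 0.68 ± 0.63, IAPLTR1a_Mm at 0.46 ± 0.65 and IAPLTR2_Mm at 0.47 ± 0.58 in the authors' deposited table. MMETn-int stood at 0.42 ± 0.58, ETnERV-int at 0.41 ± 0.58 and MMERVK10C-int at 0.31 ± 0.53 in the authors' deposited table, with intervals from -0.77 to 1.60, from -0.77 to 1.59 and from -0.78 to 1.40. The highest value was that of IAPA_MM-int, 1.40 ± 0.71 (p = 0.0568 unadjusted and 0.9997 adjusted, by limma), in the authors' deposited table. It rests on 1.66 CPM supplied and 4.39 CPM withdrawn, the second-lowest average of the members. The next were IAPEY4_LTR at 0.91 ± 0.79 and ERVB7_2B-LTR_MM at 0.80 ± 0.60, and the lowest were IAP1-MM_I-int at -0.53 ± 0.49, ERVB5_2-LTR_MM at -0.49 ± 0.58 and IAPLTR4 at -0.31 ± 0.69, in the authors' deposited table.

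By family group the PGC medians were 0.32 for IAP, 0.36 for ETn, 0.18 for MMERVK, 0.21 for ERVB, 0.22 for BGLII, 0.24 for MYSERV and 0.22 for MurERV in the authors' deposited table. BGLII entries spanned 0.13 (BGLII_C) to 0.65 (BGLII_B2), MYSERV entries 0.20 to 0.34, and MurERV4_19-int and MurERV4-int stood at 0.21 and 0.23, in the authors' deposited table. The 37 LTRs had a median of 0.31 and the 30 internal parts 0.27, a difference of -0.041 with no error available. Of the 13 elements with both parts, the LTR had the higher value in 10 and the internal part in 3, with a median difference of -0.18. With the assumed PGC sign, 4 of the 13 differences had the same sign in soma and PGCs. IAP1-MM was one of these, with its LTR at -0.0079 ± 0.66 and its internal part at -0.53 ± 0.49 in the authors' deposited table. With the PGC sign turned, the internal part would have the higher value in 10 and the LTR in 3. The differences other than these 4 would then share their sign with soma, so agreement between the cell types is not settled.

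The direct comparison asked whether the change in soma differed from that in PGCs. All 67 members had the larger log2 fold change in soma, with a median difference of 1.12, as had 1413 of the 1445 families, with a median of 1.06. By the test on limma's standard errors 0 members passed after adjustment over the families in both tables, where 0% of families passed. At an unadjusted p under 0.05 there were 14 members, or 20.9%, of which 10 were LTRs and 4 internal parts, against 341 families, or 23.6%. The smallest p-values among members were those of IAPLTR4, with a difference of 1.87 ± 0.75 (95% interval 0.36 to 3.39), ERVB4_1C-LTR_Mm, with 1.66 ± 0.69 (0.27 to 3.05), and IAP1-MM_LTR, with 1.75 ± 0.73 (0.28 to 3.22), all with an adjusted p = 0.192 on limma's standard errors. IAPEz-int differed by 1.11 ± 0.64 (-0.19 to 2.41) and ERVB4_1-LTR_MM, the smallest difference, by 0.25 ± 0.99 (-1.73 to 2.24). If the PGC sign were the reverse of that in soma, 42 members would pass as higher in soma, where 27.5% of all families would. The comparison therefore depends on an assumption that the tables cannot settle.

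If the PGC sign was that of soma, the retroviruses lay above the median family by similar amounts in both cell types. The median member lay 0.27 above the median family in soma and 0.25 above it in PGCs. After each table was centred, 33 members were higher in soma and 34 in PGCs, with a median difference of -0.010, 0 of 67 passed, and 0 reached an unadjusted p under 0.05, where 0% of all families passed and 12 families reached that p. A difference near 0 is not shown to be none, since the centred intervals reached from -2.86 (ERVB4_1-LTR_MM) to 2.25 (IAPLTR4). Of the 67 members 56 lay above the median family in both tables, and 2, IAP1-MM_I-int and ERVB5_2-LTR_MM, lay below it in both. Across the 67 members the log2 fold changes in soma and PGCs had a Pearson r of 0.40 and a Spearman rho of 0.28, as a description of entries that share sequence and reads. With the PGC sign turned, the median member would lie -0.25 from the PGC median, 5 members would lie above both medians, and r would be -0.40. The centred comparison would then have a median difference of 0.53, with 0 of 67 members passing, where 3 of 1445 families would. An unadjusted p under 0.05 would be reached by 1 member and by 152 families.

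**Figure D4:**
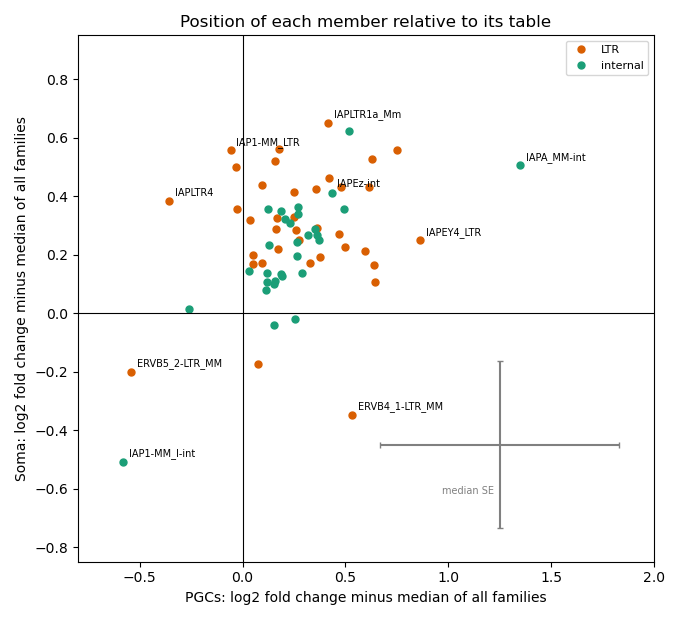
Each point is a member, placed by its log2 fold change minus the median of all families in PGCs (x) and soma (y), with a grey cross for the median SE in each direction. Of the 67 points 56 fall in the upper right, and IAP1-MM_I-int and ERVB5_2-LTR_MM fall in the lower left, with the PGC sign assumed as in soma.

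The share of the repeat signal held by the members was compared next, because a scale factor common to a group drops out of a share. The implied levels of all families summed to 748757 CPM in the supplied and 1.43e+06 CPM in the withdrawn soma group. The withdrawn total was thus 1.91-fold higher, so the scaled repeat signal as a whole differed between the groups. That total is more than counts scaled to library size alone can reach, if no read is counted for several families. In PGCs the withdrawn total was 0.912 times the supplied one. The scaling of the libraries is not described in the sources at hand, and the part of scaling in the soma change was not tested. The members held 1.44% of the summed soma signal in the supplied group and 2.06% in the withdrawn group, a 1.43-fold larger share. In PGCs they held 0.768% and 1.03%, a 1.34-fold larger share, or 0.746-fold with the PGC sign turned. These are single values per group, summed from group averages, and no test was possible on them. A family at the median of all families also gained share, with a fold change of 2.27 in soma against 1.91 for the total. In PGCs, with the assumed sign, it was 1.035 against 0.912. Shares of other retroviral families were not computed, so the gain is not shown to be particular to the members.

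IAPEz-int alone made up 25.9% of the members' summed signal in supplied soma and 18.4% in supplied PGCs. Its share of the repeat signal was 1.58-fold larger in withdrawn than in supplied soma and 1.53-fold larger in withdrawn than in supplied PGCs, or 0.652-fold with the PGC sign turned. All 25 IAP entries together went from 0.607% to 0.932% of the repeat signal in soma and from 0.297% to 0.414% in PGCs. The ETn share was 1.37-fold larger in soma and 1.37-fold in PGCs, and that of MYSERV 1.29-fold in both. With the PGC sign turned, the PGC ratios would be 0.729 for ETn and 0.774 for MYSERV. LTRs were 1.51-fold and internal parts 1.42-fold larger in share in soma, and 1.36-fold and 1.34-fold in PGCs, or 0.735-fold and 0.749-fold with the sign turned.

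**Figure D5:**
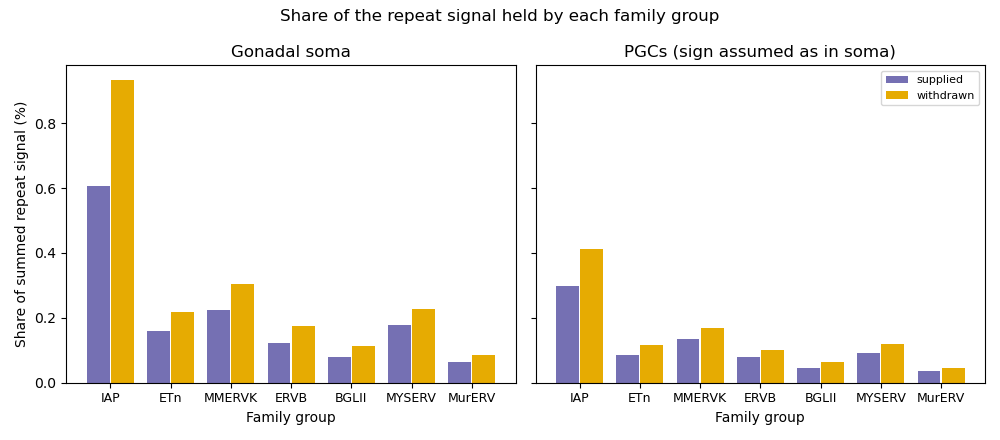
Bars give the percentage of the summed repeat signal implied by the group averages for each family group, supplied beside withdrawn, in soma (left) and PGCs (right), with 1 value per group and no error. Each family group has the taller bar in the withdrawn group in both panels, with IAP at 0.607% and 0.932% in soma and 0.297% and 0.414% in PGCs, where the bars of each pair would change places if the assumed sign were the reverse.

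Families with other retroviral names, which may include LTRs of the members' elements, had similar values. In soma 238 of 239 rodent RLTR and RMER families and 102 of 105 MaLR families rose, with medians of 1.43 and 1.41 against 1.45 for the members, in the authors' deposited table. In PGCs their medians were 0.29 and 0.24 against 0.30 in the authors' deposited table. Rodent LINE-1 families had lower medians, 1.04 in soma, where 27 of 27 rose, and -0.12 in PGCs in the authors' deposited table. No test was made between these sets, so none of the values is shown to be particular to the named ERVK families.

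H3K9me2 was also read over the genes of the machinery that silences ERVK elements. The list of 30 genes includes Trim28, the corepressor that zinc finger proteins bring to IAP sequences, Setdb1, which writes H3K9me3 there, and Dnmt1, which maintains DNA methylation. In soma 24 of its 28 measured genes passed as higher and 0 as lower in the authors' deposited table by limma, where 68.2% of all genes rose and 0.101% fell, with a median of 0.97 against 1.04 for all genes. In PGCs 0 of 28 passed by limma and 0 had an unadjusted p under 0.05, where 0% of all 27021 genes passed and 266 reached that p, with a median of -0.14 against -0.064, in the authors' deposited table.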

How the data were processed

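CUT&RUN libraries used 1000 sorted cells and 18 PCR cycles, per the labels' protocols. Trim Galore 0.4.0, Bowtie2 2.2.5, Picard and mm10 appear in the submitters' processing notes. The counting tool, filters and scaling are not stated there or in the labels. Per the file headers, the authors' deposited tables hold log2 values (fold change, average log2 CPM), the moderated t as a score, p-values raw and adjusted by Benjamini-Hochberg, and B, a natural log of odds, from limma, with voom named in the sheet titles. They hold no value per library, and the IgG libraries were not used here.

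From these, with Python 3.11.15 and scipy 1.17.1, the SE was computed as log2 fold change over t. The degrees of freedom behind the deposited p-values were 7410 in soma and 29.6 in PGCs. Group levels were derived from the average, the fold change and the group sizes. Tests relative to the median, and between soma and PGCs (Satterthwaite degrees of freedom, two-sided, soma and PGC estimates taken as independent), were adjusted over all families, on limma's standard errors. The SEs in soma fitted withdrawn minus supplied (4 subtracted libraries, median misfit 0.0326% for families and 0.0721% for genes) better than the reverse (0.493% and 1.37%). The tests were tried on simulated data, with the same spread for both cell types and libraries deeper than the minimum depths given above. That trial therefore does not check the errors of the PGC table. Where nothing says that libraries came from separate animals, p-values measure only their spread. Intervals and floors on depth cover counting or fitted error only, since PCR reads are not independent molecules.

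The members and lists were chosen with earlier results of these data known. Values with error are given for the highest and lowest member of each family group, those with the smallest p, every element with both parts, and IAPEz-int, MMETn-int, ETnERV-int, MMERVK10C-int, IAPLTR1_Mm, IAPLTR1a_Mm and IAPLTR2_Mm. Alternatives were centring, residual degrees of freedom, a stricter threshold, a filter on low averages, the PGC sign and the rule for parts. Shares of the repeat signal were computed after the other results had been seen.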

Additional observations from a re-analysis of the deposited data

How the results depend on the processing

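The count of members that rose in soma was 66, and 0 after centring on the median family, where the LTR median was 0.29 and the internal median 0.24. It stayed within 1.5 times of 66 with residual degrees of freedom, at an adjusted p under 0.01 and without the families of lowest average. Under centring 6 soma members turned below 0: BGLII_C at -0.17, ERVB3_1-I_MM-int at -0.022, ERVB4_1-LTR_MM at -0.35, ERVB4_3-I_MM-int at -0.041, ERVB5_2-LTR_MM at -0.20 and IAP1-MM_I-int at -0.51. In PGCs ERVB4_1C-LTR_Mm turned to -0.033 and IAPLTR2b to -0.026. Of the soma minus PGC differences recomputed, those of ERVB4_1-LTR_MM and IAPEz-int turned to -0.88 and -0.022. These changes follow from the subtraction itself. With the PGC sign turned, the PGC medians became -0.31 for LTRs and -0.27 for internal parts. Then 42 members passed as higher in soma, or 0 once each table was centred. The log2 ratio of the PGC share became -0.42. The turned sign was an alternative added after seeing the data. The difference of internal and LTR medians in PGCs, -0.041, was 0.010 among members other than IAP, and the cause was not tested. This PGC difference also reverses when the PGC sign is turned, by construction. It kept its sign under the remaining choices tried, and the soma difference kept its sign under all 4. No paired analysis was possible because the tables hold no values per library, and for the same reason no library could be left out. The counts relative to the median, and the PGC counts, were 0 under each alternative run, those relative to the median being added after seeing the data. So was leaving out IAP1-MM, IAPA_MM-int and ERVB4_1-LTR_MM, which left the medians of LTRs and internal parts at 1.48 and 1.42 in soma and 0.31 and 0.27 in PGCs. At the minimum depth 17 PGC members had under 10 reads. IAPEz-int, with 703, had an SE of 0.60 against a median of 0.58 over the members. What sets the size of the PGC errors was not tested.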

Other observations

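The averages of the members, over supplied and withdrawn libraries together, were set side by side between the tables, which were scaled separately, as a description with no test. Over all families the median average log2 CPM was also higher in soma, at 5.87 against 5.36 in PGCs. The count that follows was made for the members only, so it is not shown to be particular to them. In the authors' deposited tables the average log2 CPM was higher in soma than in PGCs for 65 of the 67 members, with a median difference of 0.83 and a highest difference of 1.43. The exceptions were IAP1-MM_I-int, at 7.90 in soma and 7.97 in PGCs, and ERVB5_2-LTR_MM, at 5.65 and 5.68, in the authors' deposited tables. IAP1-MM_I-int ranked 17 of 67 by average in soma and 9 in PGCs. The same 2 members had the lowest log2 fold changes of the 67 in PGCs, at ranks 67 and 66, and ranks 67 and 65 in soma. They were chosen here after their values had been seen. The LTR of IAP1-MM had the higher average in soma, at 4.80 against 4.35 in PGCs, in the authors' deposited tables. By log2 fold change it ranked 5 in soma but 63 in PGCs, so it shared the low PGC rank only. The PGC ranks by log2 fold change rest on the assumed sign and would run the other way if it were the reverse.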
